A study of Tribolium castaneum with 8 samples.

Results

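Ganglion mother cells are the short-lived progeny of neuroblasts, the neural stem cells of insects, and in the deposited annotation they are the cells labelled GMC. Of 31573 annotated cells, 10326 carried this label (32.7%), of which 8391 were beetle cells (Tribolium castaneum) and 1935 were fly cells (Drosophila). The members were chosen by the label alone. It was given by the authors, and the name of the deposited table says that it came from label transfer between these species. That name also speaks of brain neuroblasts, without saying whether this holds for the cells of both species.

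The beetle cells came from 8 libraries of untreated Tribolium embryos, 35 to 50 hours old, prepared with the 10x Genomics droplet method. All 8 carry the genotype turbo GFP. A Gal4 enhancer trap marks neuroblasts with this green fluorescent protein, and live fluorescent single cells were sorted. Because the sort selects on the reporter, the shares below are those of annotated sorted cells and not of the embryo. The labels give each library a strain number of its own (GoGal41519 to GoGal41526, an unbroken run), while the series' design text speaks of a single line, so the number was not used to separate libraries. No label ties the libraries to separate collections of embryos, and spreads between them may be technical. The Drosophila cells form 1 pooled set, whose genotype, stage, dissociation and sorting were not given in any source used here. A difference between beetle and fly cells therefore cannot be told apart from these, nor from an effect of the label transfer on the labels.

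In Drosophila a type I neuroblast divides asymmetrically, renews itself and buds off a ganglion mother cell, which divides once more into neurons or glia. Type II neuroblasts reach ganglion mother cells through intermediate neural progenitors (INPs) that divide several times first. The fly gene pros encodes a homeodomain transcription factor that the neuroblast passes to the ganglion mother cell, where it enters the nucleus. Another fly gene, dap, encodes an inhibitor of cyclin-dependent kinase that helps cells leave the cell cycle, and tap encodes a basic helix-loop-helix transcription factor. The table used here gives a label and no gene expression for each cell, so pros, dap and tap could not be examined and the label could not be checked against its markers.

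Several denominators were used, since a share moves with whatever else was captured. The neural cells are those of the 7 labels NBs I, GMC, NBs II/INPs, Midline_NBs, Sensory NBs, NBs II/INPs/newborn neurons_1? and NBs II/INPs/newborn neurons_2?, spelled as deposited with the authors' question marks. The cells outside NBs I are all cells but the type I neuroblasts. The neuroblasts are the 4 labels NBs I, NBs II/INPs, Midline_NBs and Sensory NBs together.

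The libraries contributed very unequally. Library 8 held 2928 GMC cells, or 34.9% of those from beetle, whereas library 3 held 38 and library 4 held 186. Library 3 had 77 cells in all and library 4 had 392, and their non-neural shares (9.09% and 7.40%) were the lowest of the 8. In the other 6 libraries the non-neural share, that of the mesodermal and blood cell labels, was between 12.1% and 18.9%. For several results the value without libraries 3 and 4 or without library 8 is given beside it.

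GMC made up close to an even share of the beetle's neural cells and a far smaller share of the fly's. The share of GMC among neural labels was 49.3% ± 3.17 in Tribolium (SD, n = 8 libraries) and 20.4% in Drosophila (exact 95% interval 19.6% to 21.3%), a difference of 28.9 percentage points and a ratio of 2.41. The lowest beetle library was library 8 at 43.6%, still 2.13 times the fly share. The median over libraries was 48.9%, and the highest was library 3 at 54.3%. The intervals of all 8 libraries lay above that of Drosophila. With all beetle cells pooled the share was 47.0%, of 17871 neural cells.

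Among neural cells the beetle libraries other than library 8 differed little. Libraries 1, 2, 4, 5, 6 and 7 had GMC shares of 51.7%, 48.4%, 51.2%, 49.1%, 48.6% and 47.6% of neural cells. Of 28 pairs of libraries, 6 had 95% intervals that did not overlap, and each of these 6 pairs included library 8. The chi-square statistic of GMC against the other neural cells was 8.03 per degree of freedom over 8 libraries and 1.35 without library 8, where a value of 1 is what counting error alone gives. Without library 8 the mean was 50.1% ± 2.36 (SD, n = 7).

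**Figure D1:**
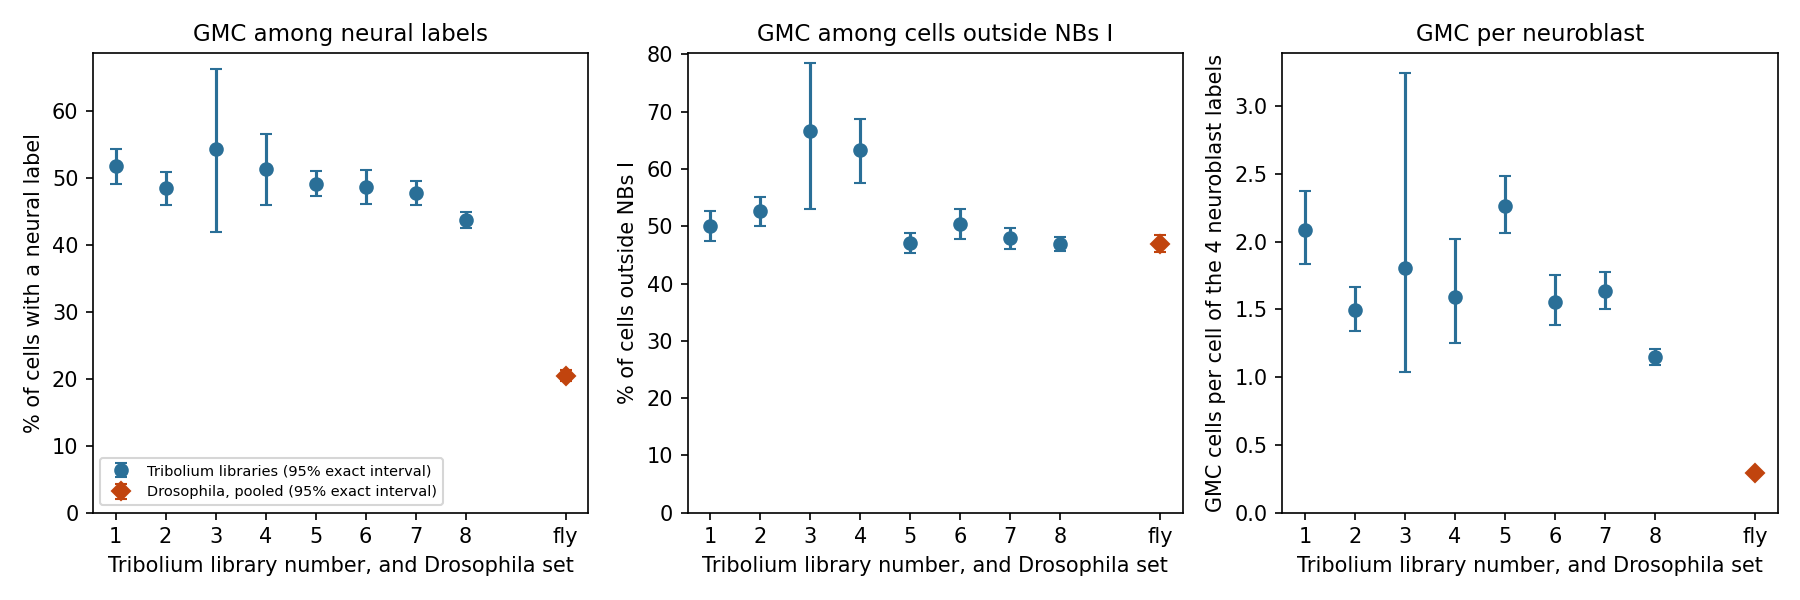
GMC cells by library in Tribolium (blue circles, libraries 1 to 8) and in the pooled Drosophila set (orange diamond), with exact 95% intervals. The panels show the percentage among neural labels, the percentage among cells outside NBs I, and GMC cells per cell of the 4 neuroblast labels. The fly lies below every library in the outer panels (20.4% and 0.293) and level with the lowest libraries in the middle panel (47.0%).

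Beetle libraries held more GMC cells than neuroblasts, and the fly set held fewer. There were 1.70 ± 0.351 GMC cells per cell of the 4 neuroblast labels in Tribolium (SD, n = 8) and 0.293 in Drosophila (exact 95% interval 0.278 to 0.308). The Drosophila value rests on 1935 GMC cells and 6613 neuroblasts. The beetle mean was 5.80 times the fly value, and single libraries were from 3.92 to 7.73 times it. With all beetle cells pooled, as the fly cells are, there were 1.49 GMC cells per neuroblast, 5.11 times the fly value. Libraries 1 and 5 were the highest at 2.09 and 2.26 GMC cells per neuroblast. Libraries 2, 3, 4, 6 and 7 had 1.49, 1.81, 1.59, 1.56 and 1.63. Library 8 was the lowest at 1.15 (95% interval 1.09 to 1.21). Its interval lay apart from those of 6 of the other 7 libraries, the exception being the small library 3. Without library 8 the mean was 1.78 ± 0.293 (SD, n = 7). With the question-mark labels counted as neuroblasts too, there were 0.980 GMC cells per such cell on average in Tribolium, above 1 in 3 libraries and below 1 in 5, and 0.257 in Drosophila. Between libraries this measure varied more than the neural share, with a chi-square of 29.6 per degree of freedom over 8 libraries and 8.78 without library 8.

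The low value of library 8 went with a high share of NBs II/INPs and Sensory NBs among its neuroblasts. Midline_NBs, 247 cells in library 8, are not part of the sum that follows. NBs II/INPs and Sensory NBs together were 905 of its 2551 neuroblasts (35.5%), against 0% in library 3 (0 of 21 neuroblasts, which allows up to 14.3%) and from 7.69% to 11.6% in the other 6 libraries. Set against NBs I alone, library 8 had 2.09 GMC cells per cell, among the values of the other 7, which ran from 1.87 to 2.66. The beetle mean was 2.14 ± 0.306 GMC cells per NBs I cell (SD, n = 8), and the Drosophila value was 0.307 (exact 95% interval 0.292 to 0.323). The beetle ratio was thus 6.97 times that of the fly, and the intervals of all 8 libraries lay above that of the fly.

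Once the type I neuroblasts were set aside, most of the species difference in GMC was no longer seen. GMC made up 53.1% ± 7.61 of the cells outside NBs I in Tribolium (SD, n = 8) and 47.0% in Drosophila (exact 95% interval 45.4% to 48.5%, 4120 cells), a difference of 6.15 percentage points that is smaller than the SD between libraries. NBs I took up between 15.1% and 26.0% of all cells in each beetle library and 60.5% in Drosophila, so this denominator removes far more of the fly set. The median of the libraries was 50.2%.

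Libraries 3 and 4 raised that beetle mean. GMC made up 66.7% and 63.3% of their cells outside NBs I. In libraries 1, 2, 5, 6, 7 and 8 it made up 50.0%, 52.6%, 47.1%, 50.4%, 47.9% and 46.9%, with a mean of 49.2% ± 2.24 (SD, n = 6). Against the Drosophila share the difference was then 2.20 percentage points, and with all beetle cells pooled it was 1.58. The 95% intervals of libraries 2, 3 and 4 lay above that of Drosophila, and those of the other 5 overlapped it. Library 8 was the only library below the fly share, by less than counting error, and without it the fly would lie below all 7 others.

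Non-neural cells also enter the denominator outside NBs I. Among neural cells outside NBs I, GMC made up 64.6% ± 6.32 in Tribolium (SD, n = 8) and 61.1% in Drosophila (exact 95% interval 59.4% to 62.8%). Here the fly lay inside the spread of the libraries: library 4 at 70.2% had an interval above that of the fly, library 8 at 55.1% had one below it, and the intervals of the other 6 overlapped it. Without libraries 3 and 4 the beetle mean was 61.8% ± 3.80 (SD, n = 6), and the difference from the fly went to 0.692 percentage points, against 3.51 with all 8. Outside all 4 neuroblast labels, GMC made up 57.0% ± 7.20 of beetle cells (SD, n = 8) and 50.8% of fly cells (exact 95% interval 49.2% to 52.4%), and the intervals of 4 libraries lay above that of the fly. Libraries 3 and 4 were the highest at 67.9% and 67.6%. Without them the mean was 53.5% ± 3.41 (SD, n = 6), 2.72 percentage points above the fly, against 6.29 with all 8.

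No p-value was computed between the species for any of these measures. An exact permutation of 1 pooled set against 8 libraries cannot give a p below 0.111.

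**Figure D2:**
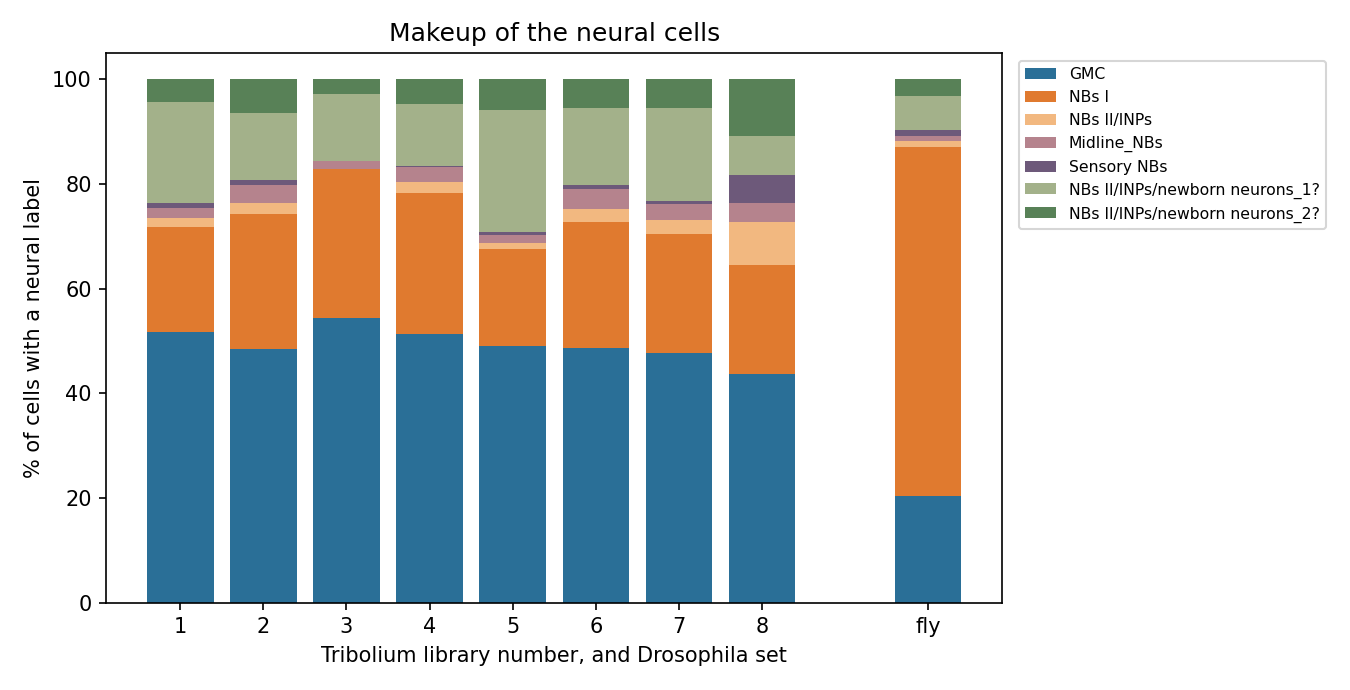
Makeup of the neural cells in each Tribolium library (1 to 8) and in the pooled Drosophila set. Each bar shows the percentage of cells with each of the 7 neural labels. GMC (blue, at the base) fills from 43.6% to 54.3% of the beetle bars and 20.4% of the fly bar.

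The ratio of GMC to each other label was then compared with the fly value as a description. A place inside the beetle range does not show that a label has no difference, since some range ends rest on 1 cell. Of the 9 labels other than GMC, 6 had a Drosophila ratio inside the range of the beetle libraries. For 3 labels, NBs I, the blood cell label and PCGs, the Drosophila ratio lay below every library in which that label occurred. Without library 8 the fly ratio was inside the range of the remaining libraries for 4 labels, as described below.

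Among the minor neuroblast labels, the fly value lay among those of the beetle libraries for midline and type II cells. Midline_NBs, named for the neuroblasts of the midline, had between 11.9 and 38.0 beetle GMC cells per cell with a median of 17.0, and 21.5 in Drosophila (exact 95% interval 17.4 to 26.9). The highest of these values, in library 3, rests on 1 midline cell (95% interval 6.42 to 1540). The fly value was higher than 5 of the 8 libraries, of which 2, libraries 6 and 8, had intervals wholly below that of the fly, and no library had one above it. NBs II/INPs had between 5.31 GMC cells per cell in library 8 and 41.4 in library 5, and 18.8 in Drosophila (exact 95% interval 15.4 to 23.1). Library 3 held no NBs II/INPs cell and gives no ratio. Of the 7 libraries with a ratio, only library 5 had an interval above that of the fly and only library 8 one below it.

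Sensory NBs, named for neuroblasts of the sensory system, behaved differently. Libraries 1, 2, 5, 6 and 7 had 45.9, 47.7, 82.8, 53.4 and 76.6 GMC cells per Sensory NBs cell, and library 4 had 186, with 1 Sensory NBs cell (95% interval 33.0 to 7386). Library 8 had 8.27 (95% interval 7.40 to 9.26), and library 3 had no such cell. Drosophila had 16.8 (exact 95% interval 13.9 to 20.5), below the intervals of the 6 libraries named before and above that of library 8. The place of the fly inside the beetle range therefore rested on library 8. Summed, the 3 neuroblast labels other than NBs I had from 2.54 GMC cells per cell in library 8 to 38.0 in library 3, where the count was 1. The median was 8.64, and Drosophila had 6.28 (exact 95% interval 5.57 to 7.11). Without library 8 the fly would lie below every library, the lowest being library 6 at 6.74 (95% interval 5.51 to 8.30). With all beetle cells pooled the ratio was instead 4.79 (95% interval 4.55 to 5.05), below the interval of the fly.

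The labels with a question mark join type II lineages with newborn neurons, which lie downstream of ganglion mother cells. Both together had 2.47 ± 0.567 GMC cells per cell in Tribolium (SD, n = 8) and 2.10 in Drosophila (exact 95% interval 1.94 to 2.27). Libraries 1 to 8 had 2.19, 2.52, 3.45, 3.10, 1.68, 2.41, 2.06 and 2.37. Library 4 had an interval above that of the fly, library 5 one below it, and the others overlapped. The beetle mean exceeded the fly value by less than the SD between libraries, and without libraries 3 and 4 it was 2.21 ± 0.305 (SD, n = 6). For newborn neurons_1? the beetle libraries ranged from 2.10 in library 5 to 5.76 GMC cells per cell in library 8, and Drosophila had 3.14 (exact 95% interval 2.86 to 3.44). For newborn neurons_2? library 8 was instead the lowest at 4.03, while the others ranged from 7.51 to 19.0 and Drosophila had 6.34 (exact 95% interval 5.62 to 7.18). The highest value, in library 3, rests on 2 cells (95% interval 4.91 to 162.6). Without library 8 the fly would lie below every beetle library for newborn neurons_2?, although the intervals of 4 of the other 7 overlap its own.

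GMC was also set against the labels outside the nervous system. There were between 3.07 and 9.50 GMC cells per cell labelled Mesodermal/muscle progenitors in Tribolium, with a median of 3.86, and 3.73 in Drosophila (exact 95% interval 3.38 to 4.12). Of the 8 libraries, 4 lay above the fly and 4 below it, and only library 4, at 8.45, had an interval apart from that of the fly. For plasmatocytes/embryonic hemocytes/macrophages, the blood cell label, the beetle libraries ranged from 5.71 to 26.6 GMC cells per cell with a median of 7.42, and Drosophila had 5.51 (exact 95% interval 4.92 to 6.19). All 8 libraries were above the fly, but only those of libraries 4, 5 and 8 had intervals that lay apart from it. PCGs, whose meaning is not given, occurred in 2 beetle libraries with 1 cell each, and there were 22.8 GMC cells per PCGs cell in Drosophila.

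**Figure D3:**
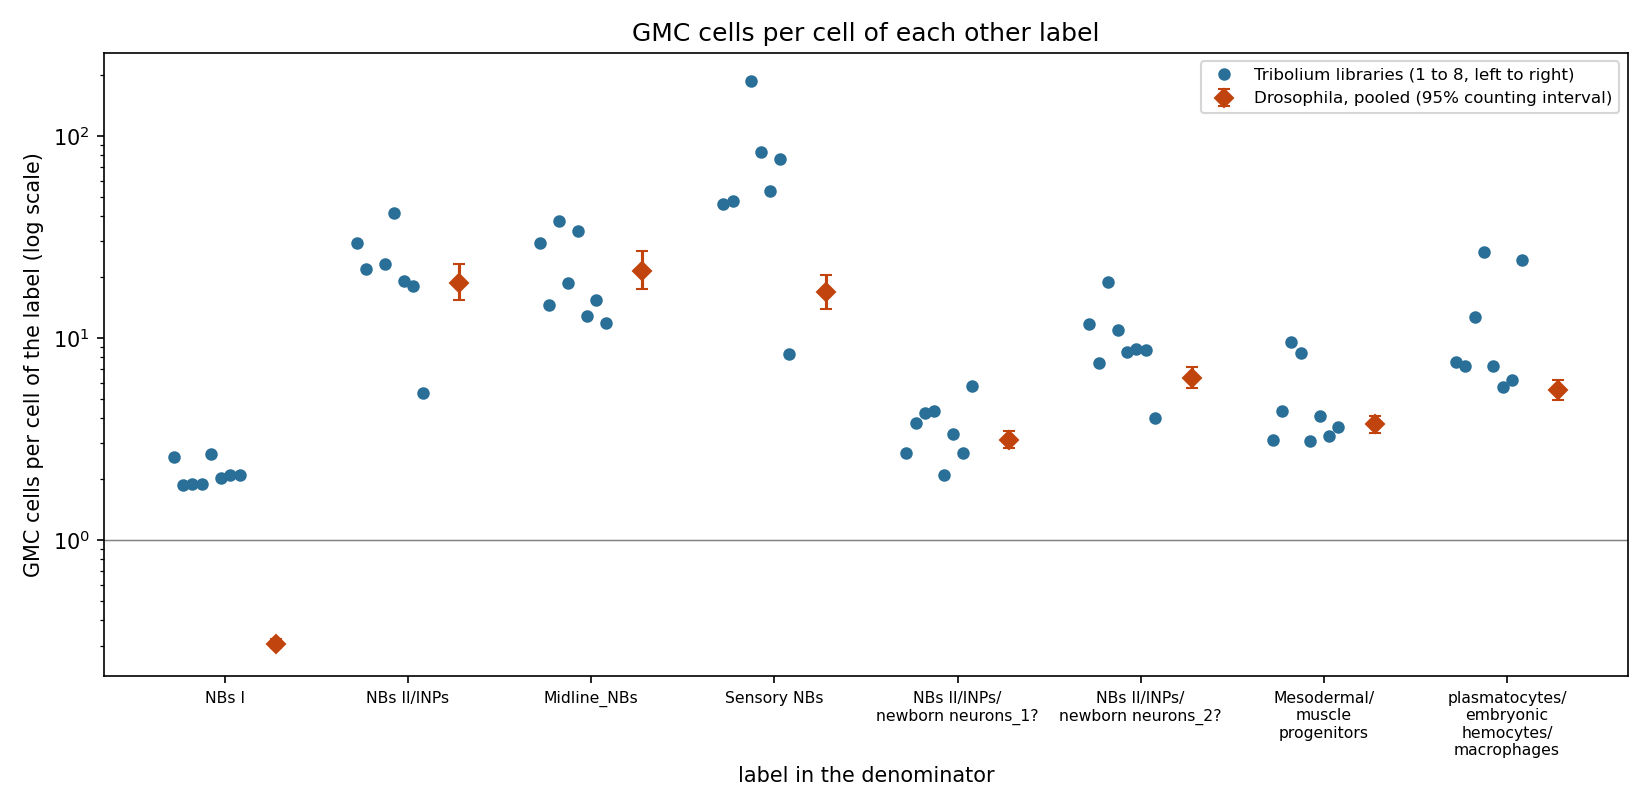
GMC cells per cell of each other label on a log axis, for Tribolium libraries 1 to 8 (blue circles, left to right; a library with no cell of the label has no point) and the pooled Drosophila set (orange diamond, exact 95% interval). For NBs I the beetle libraries lie at 1.87 to 2.66, far above the fly at 0.307; for the others the fly is within or near their range. PCGs are not drawn.

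Over the beetle libraries, the GMC share among neural labels tended to be lower in larger libraries. Library 8, with 7639 cells, was at 43.6% and library 3, with 77 cells, at 54.3%. The interval of library 3 (exact 95% interval 41.9% to 66.3%) overlaps that of library 8. Without library 8 the SD between libraries (2.36 percentage points) was below that from counting error (2.65), so little spread remained to follow library size. Pearson's r over 8 libraries was -0.90 (exact two-sided permutation p = 0.0025, adjusted 0.015 over the 6 relations computed) and Spearman's rho was -0.90 (exact permutation p = 0.0046, adjusted 0.022). Without the smallest and the largest library, numbers 3 and 8, r was -0.67 (n = 6, exact permutation p = 0.15, adjusted 0.22) and rho was -0.77 (exact permutation p = 0.10, adjusted 0.20), of the same sign and no longer past the threshold. Sequencing depth per cell was not analysed here, and its part in this was not tested. For the share outside NBs I against library size, r was -0.74 (exact permutation p = 0.040, adjusted 0.079) and rho was -0.88 (exact permutation p = 0.0072, adjusted 0.022). Without libraries 3 and 8, r was -0.86 (n = 6, exact permutation p = 0.017, adjusted 0.058) and rho was -0.71 (exact permutation p = 0.14, adjusted 0.20).

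The GMC share outside NBs I was highest in the 2 libraries with the lowest non-neural share. Over 8 libraries r was -0.81 (exact two-sided permutation p = 0.022, adjusted 0.065) and rho was -0.55 (exact permutation p = 0.17, adjusted 0.29). Without these libraries, 3 and 4, r was 0.044 (n = 6, exact permutation p = 0.92). Non-neural cells are part of this denominator, so the measures are not independent. The number of GMC cells per neuroblast had an r of 0.43 with the non-neural share and -0.40 with library size over 8 libraries (exact permutation p = 0.29 and 0.33, adjusted 0.40 for each; rho 0.52 and -0.33, exact permutation p = 0.20 and 0.43, adjusted 0.29 and 0.51). Without libraries 3 and 4 its r with the non-neural share was 0.86 (n = 6, exact permutation p = 0.024, adjusted 0.069) and rho was 0.94 (exact permutation p = 0.017, adjusted 0.10). The GMC share among neural labels had an r of -0.26 with the non-neural share (exact permutation p = 0.53, adjusted 0.53; rho -0.05, exact permutation p = 0.93, adjusted 0.93).

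**Figure D4:**
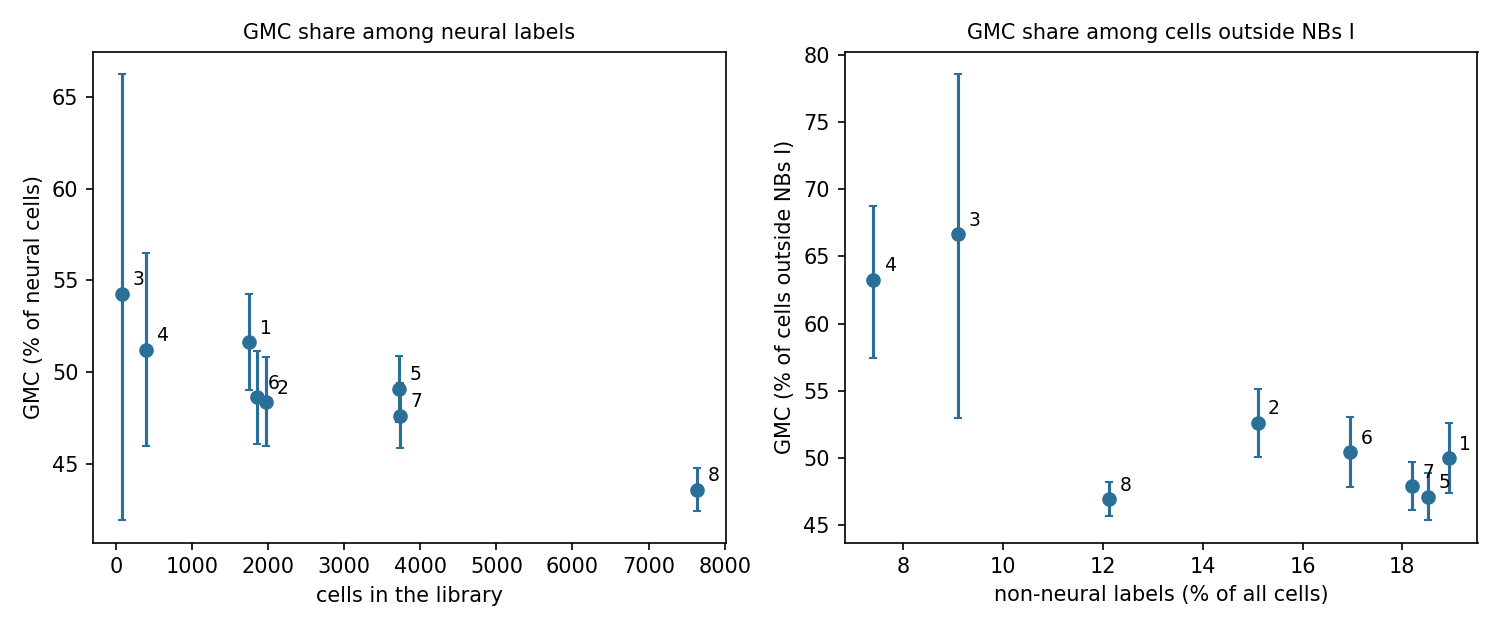
Tribolium libraries, numbered 1 to 8, with exact 95% intervals; both vertical axes start above 0. Left, GMC as a percentage of neural cells against the number of cells in the library. Right, GMC as a percentage of cells outside NBs I against the percentage of non-neural labels, where libraries 3 and 4 stand apart at 66.7% and 63.3%.

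Few barcodes occurred in more than 1 library. Among 21076 distinct beetle barcodes, 72 were found in 2 libraries each, which involved 144 cells, 66 of them GMC (45.8%, against 39.7% of all beetle cells). In 13 of the 72 both cells were GMC, and in 15 both cells had the same label. The numbers that unrelated cells would give were not computed, so these counts do not show that the cells are related. Only 3 Drosophila barcodes also occurred in Tribolium. Of the fly cells, 193 carry a suffix on their barcode that the other 10232 lack. GMC made up 21.5% of neural cells among those with a suffix (37 of 172, exact 95% interval 15.6% to 28.4%) and 20.4% among those without.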

How the data were processed

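The deposited table gives a barcode, a label and a species for each cell and holds no counts or expression values. Per the submitters' processing notes Cell Ranger and Scanpy were used, without version or role. The genome builds, cell filters, direction of the label transfer and treatment of doublets in the table were not given in any source used here; per the labels' protocols, a scatter gate removed doublets during the sort. Each barcode has 16 bases, and the suffix 1 to 8 of Tribolium barcodes was taken as the replicate number of the sample titles.

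Shares and ratios were computed per library, and each of the 8 libraries has the same weight in a mean or SD. Intervals are exact (Clopper-Pearson) at 95%; that of a ratio was converted from the share of GMC in both labels together. The limit for a count of 0 is 3 cells of the total. All cover counting error only. A library was called apart from the fly where the 2 intervals did not overlap. Chi-square per degree of freedom is a description of spread, with no p over cells. Correlations have exact permutation p-values over all pairings, 40320 for 8 libraries and fewer where libraries were left out. Benjamini-Hochberg adjustment was over 6 relations, separately for each way of leaving libraries out. All labels could be named, being fewer than 20. The members, measures and denominators were chosen with earlier results of these data known. Alternatives covered weighting, denominators, small libraries, shared barcodes, Drosophila cells with a suffix and leaving out each library. The software was Python 3.11.15 with scipy 1.17.1, numpy 2.4.6 and pandas 2.3.3, and figures were drawn with matplotlib 3.10.9.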

Additional observations from a re-analysis of the deposited data

Results flagged for a closer look

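The number of GMC cells per neuroblast was above 1 in 8 of 8 Tribolium libraries (1.15 to 2.26) and below 1 in the pooled Drosophila set (0.293). With the question-mark labels added to the neuroblasts, 5 of the 8 libraries were below 1 as well (0.774 to 1.19 over all 8, 0.257 in Drosophila). The difference was not tested, since the fly cells form 1 set. Among 17 measures of GMC, the gap between the highest or lowest library and its neighbour passed the 95% critical value for 2. Chance flags about 1 in 20 groups that are independent and normally distributed. These measures share the same GMC cells, so that rate need not hold here. The value of 186 GMC cells per Sensory NBs cell in library 4 and that of 38.0 GMC cells per neuroblast outside NBs I in library 3 each rest on 1 cell in the denominator.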

How the results depend on the processing

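The GMC shares among neural labels and outside NBs I, the number of GMC cells per neuroblast and their species differences were recomputed in 83 ways. Of these, 76 moved by less than 1 SD between libraries without a change of sign. Apart from the settings that left out 1 library, this held for 28 of 35. For the share outside NBs I the SD (7.61 percentage points) is larger than the species difference itself (6.15). Leaving out 1 of 8 libraries can hardly move a mean by 1 SD, so ranges are given. The species difference was 28.2 to 29.7 percentage points among neural labels and 4.22 to 7.04 outside NBs I. The ratio of GMC per neuroblast was 5.53 to 6.07. With all beetle cells pooled these were 26.5, 1.58 and 5.11, each below its range. Without the question-mark labels the neural share was 62.4% and its species difference 39.7 percentage points. Without non-neural labels the share outside NBs I was 64.6%. With all beetle cells pooled as well, a setting added after seeing the data, the species difference was -1.24 percentage points, a change of sign. GMC cells per neuroblast were 2.14 with NBs I alone and 0.980 with the question-mark labels added, where Tribolium was 3.82 times Drosophila. By construction, these change which cells are counted.

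The correlation of the neural share with library size no longer passed the adjustment without libraries 3 and 8 (r = -0.67), without library 8 (-0.79) or without libraries under 500 cells (-0.88). Non-neural cells are part of the denominator outside NBs I, so that share and the non-neural share are not independent. For the share outside NBs I, without library 8, r passed with library size (-0.90) and with the non-neural share (-0.96). By rank neither passed there (rho -0.82 and -0.86, exact permutation p = 0.034 and 0.024, adjusted 0.068 for each). Without libraries 3 and 4, r was -0.75 with library size (exact permutation p = 0.062, adjusted 0.094) and 0.044 with the non-neural share. The neural share against the non-neural share turned to 0.86 without libraries 3 and 4 and was -0.62 without library 8, and GMC per neuroblast against the non-neural share was 0.86 without libraries 3 and 4 and 0.39 without library 8. GMC per neuroblast against library size turned to 0.42 without libraries 3 and 8 and to 0.31 without library 8. The cause was not tested. No paired analysis was possible because the labels give a single group. Library 3 held 77 cells, which limits the precision of its values.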
